A study of Sus scrofa with 4 samples.

Results

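The neuronal cytoskeleton genes examined here are DCX, TUBB3, STMN2, STMN4, MAP2, MAPT, INA, NEFL, NEFM and GAP43. They were chosen by symbol as microtubule, intermediate filament and growth cone proteins of young neurons, with earlier results of these data known. Of these 10 genes, 9 had a row among the 16026 genes of the deposited table. TUBB3, the class III beta tubulin of neurons, had no row under that symbol and was not analysed here. Poly(A)-selected RNA had been sequenced from porcine induced pluripotent stem cells of the Bamei black pig, all labelled with a development stage of 26.5 days. The cells carried either a negative control hairpin construct, labelled shNC (libraries control 1 and control 2), or a hairpin against LIN28A, labelled shLin28a (knockdown 1 and knockdown 2). LIN28A binds RNA in embryonic cells. No other allele or agent is labelled for either group. The labels do not state whether both knockdown libraries used the same hairpin, or whether the libraries of a group were separate cultures, so p-values reflect library-to-library spread alone, possibly only technical.

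Axons and dendrites are built on microtubules and neurofilaments. Microtubules are polymers of alpha and beta tubulin, which doublecortin, MAP2 and tau bind and stabilise, while proteins of the stathmin family bind free tubulin. Neurofilaments are copolymers of NEFL, NEFM, NEFH and, in young neurons, INA (alpha-internexin). GAP43 lies under the membrane of the growth cone. As background, transcripts of this kind accumulate when neural progenitors leave the cell cycle and extend processes, although MAP2 and GAP43 are also transcribed in other cells.

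Summed expected counts ranged from 2400985 in knockdown 2 to 11847343 in control 1, a 4.93-fold range, so counting error was largest in knockdown 2. LIN28A had 184 and 59 counts in the control libraries and 12 and 3 in the knockdown libraries (edgeR log2 fold change −2.92 ± 0.49 SE, adjusted p = 0.259). The labelled cell type was checked against pluripotency genes: POU5F1 was at 43.4 and 37.7 FPKM in the control libraries and 41.4 and 16.6 in the knockdown, and SOX2 was at 91.9 and 80.9 against 109 and 53.5. FPKM is the read count divided by transcript length and library size, and CPM, used below, is the count scaled to library size alone. NANOG was spread over more than 1 row and was not used, and TDGF1, DPPA4, ZFP42, UTF1 and PRDM14 had no row. POU5F1 and SOX2 were named after their values were seen, and SOX2 was also on the list of neural progenitor markers. Transcripts of POU5F1 and SOX2 were thus detected in the same libraries as the neuronal transcripts described below. The whole list of pluripotency genes is described further below.

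Transcripts of 7 of the 9 measured genes were more abundant in each knockdown library than in either control: DCX, MAPT, STMN2, STMN4, NEFL, NEFM and INA. For the 6 of these that passed the filter on low counts the differences were 2.10- to 6.18-fold in edgeR, largest for STMN4. MAP2 and GAP43 overlapped between the groups. No gene of the whole table passed edgeR's quasi-likelihood test at an adjusted p under 0.05 in either direction (0% of 11967 tested genes), so none of these differences was called. Because the members were chosen with earlier results of these data known, the shares that follow describe the list and do not test it. At an unadjusted p under 0.05, 6 of the 8 tested members were higher, where 4.26% of all tested genes were higher and 3.45% lower at that level. Groups did not overlap, with the knockdown higher, for 6 of the 8, against 18.8% of all tested genes. The log2 fold change was above 0 for all 8 (MAP2 turned to −0.11 with total counts, and GAP43 to −0.31 without knockdown 2), as it was for 51.2% of all tested genes. Each of the 8 met the filter on low counts in both controls as well as in both knockdown libraries. From bulk RNA, more neurons and more of these transcripts per cell cannot be told apart.

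**Figure D1:**
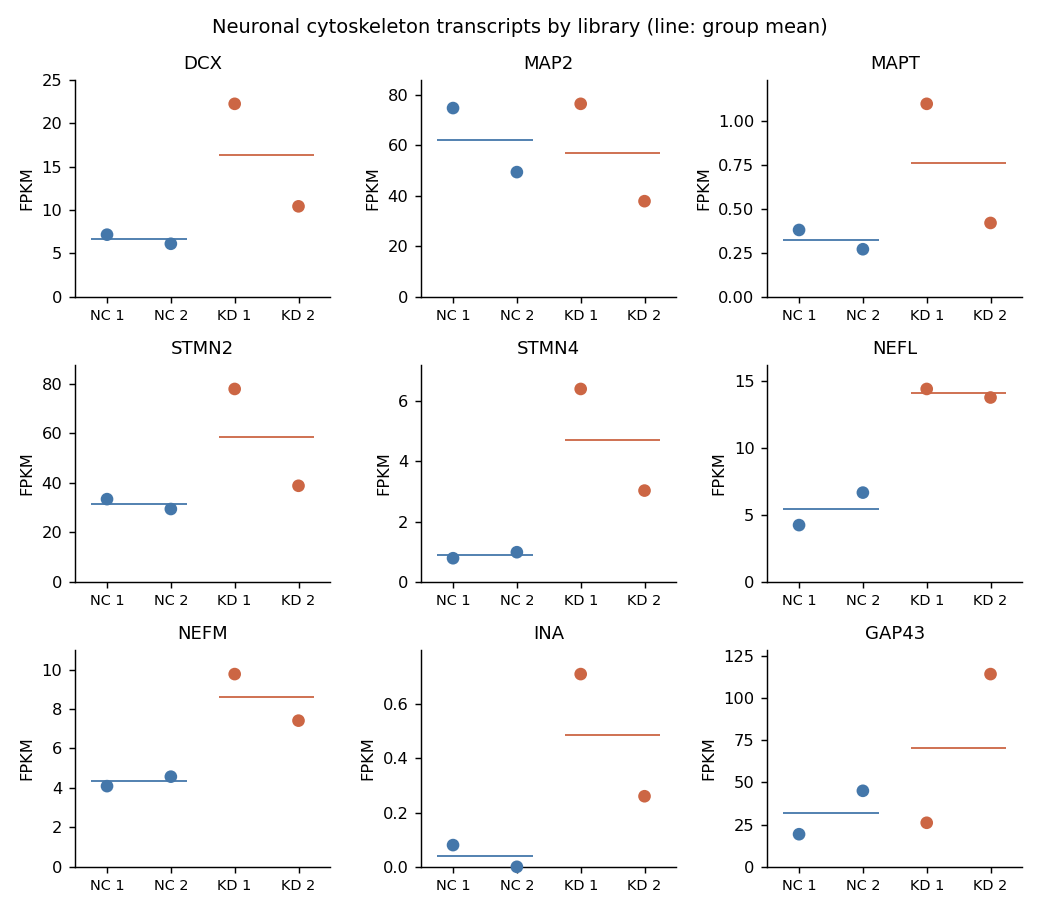
FPKM (y axis, from 0, a separate scale in each panel) of the 9 measured genes in control 1 and 2 (NC 1, NC 2) and knockdown 1 and 2 (KD 1, KD 2); lines are group means of 2 libraries. In 7 panels both knockdown points lie above both control points, while in the MAP2 and GAP43 panels the groups overlap.

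Doublecortin, the microtubule-stabilising protein of migrating neurons, is encoded by DCX on the X chromosome at 91317671 to 91644572 (Sscrofa11.1). It was at 7.14 and 6.09 FPKM in the control libraries and at 22.2 and 10.4 in knockdown 1 and 2, from 841, 430, 1774 and 246 counts. The group means were 6.62 ± 0.742 and 16.3 ± 8.37 (SD, n = 2 each), and the edgeR log2 fold change was 1.47 ± 0.30 (SE, adjusted p = 0.327). Both knockdown libraries were above both controls, and knockdown 1 was well above knockdown 2, by 0.68 on the log2 scale after normalisation, where the controls differed by 0.19.

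MAP2, a microtubule-binding protein best known from dendrites, is on chromosome 15 at 112156578 to 112462932. It was the most abundant member in the controls, at 74.6 and 49.3 FPKM, and it was at 76.3 and 37.8 in the knockdown libraries. The groups overlapped, with control 1 and knockdown 1 above control 2 and knockdown 2. The edgeR log2 fold change was 0.07 ± 0.34 (SE, adjusted p = 0.953) and was −0.11 when libraries were scaled by total counts, which lowered the median of all genes from 0.01 to −0.18. It lay between −0.25 (without knockdown 1) and 0.38 (without control 1), and was −0.19 without control 2. RefSeq lists 50 transcripts for this gene, and its long and short isoforms are not separated in a table of gene totals.

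Tau, the axonal microtubule-binding protein encoded by MAPT (chromosome 12, 17098259 to 17211483), was scarce. It had 23 and 10 counts in the control libraries and 45 and 5 in the knockdown libraries, or 0.38, 0.27, 1.10 and 0.42 FPKM. After normalisation both knockdown libraries lay above both controls, but the interval of the knockdown 2 value, 0.676 to 4.86 CPM (exact Poisson, 95%), contained the value of both controls, 1.94 and 1.40. The edgeR log2 fold change was 1.41 ± 0.53 (SE, adjusted p = 0.606) and was 0.73 without knockdown 1.

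The stathmins bind free tubulin dimers and promote microtubule disassembly. STMN2 (chromosome 4, 56952968 to 57006744), a stathmin of growth cones, was at 33.3 and 29.3 FPKM in the control libraries and at 77.8 and 38.7 in the knockdown. All 4 values rested on at least 184 counts. The groups did not overlap, although knockdown 2 was nearer to the controls than to knockdown 1 in FPKM. In edgeR the log2 fold change was 1.07 ± 0.27 (SE, adjusted p = 0.418).

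STMN4 (chromosome 14, 10986510 to 11007757), a neural stathmin, had the largest fold difference of the tested members at a low level. It was at 0.78 and 0.98 FPKM in the control libraries and at 6.41 and 3.03 in the knockdown, from 19, 14, 104 and 15 counts. The interval of knockdown 2, 3.50 to 10.3 CPM (exact Poisson, 95%), lay above the upper bounds of both controls, 2.50 and 3.30. Its log2 fold change in edgeR was 2.63 ± 0.42 (SE), a 6.18-fold difference, with an adjusted p of 0.247.

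The neurofilament genes NEFM and NEFL are neighbours on chromosome 14, at 8955346 to 8967211 and 8991321 to 8996900, with 24.1 kilobases between them. NEFL, the light subunit needed for filament assembly, was at 4.23 and 6.66 FPKM in the control libraries and at 14.4 and 13.8 in the knockdown. NEFM, the medium subunit, was at 4.09 and 4.57 against 9.77 and 7.41 FPKM. For both genes the groups were separate, and the knockdown libraries were closer to each other than for the microtubule genes: after normalisation knockdown 2 differed from knockdown 1 by 0.36 for NEFL and 0.03 for NEFM on the log2 scale. In edgeR the log2 fold change was 1.60 ± 0.31 for NEFL (SE, adjusted p = 0.301) and 1.20 ± 0.20 for NEFM (SE, adjusted p = 0.253). INA (chromosome 14, 114227998 to 114240566) had 3 and 0 counts in the control libraries and 18 and 2 in the knockdown, below the filter on low counts in edgeR. DESeq2, run without that filter, gave a log2 fold change of 3.66 and an adjusted p of 0.541. At 2.23 CPM (exact Poisson 95% interval 1.32 to 3.53), knockdown 1 exceeded the upper bounds of both controls, 0.740 and 0.518. The interval of knockdown 2, 0.101 to 3.01, did not separate from either control at its depth.

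GAP43 (chromosome 13, 144364314 to 144458136), a membrane-bound substrate of protein kinase C in growth cones, followed another order. It was at 19.3 and 45.0 FPKM in the control libraries and at 26.1 and 114 in the knockdown. Knockdown 1 lay between the controls and knockdown 2 was above all other libraries. The edgeR log2 fold change of 1.47 ± 0.88 (SE, adjusted p = 0.614) became −0.31 without knockdown 2 and was 2.27 without knockdown 1 or without control 2. The fibroblast marker genes had the same order of libraries: their summed level was 607 and 972 FPKM in the control libraries and 815 and 2107 in the knockdown. Their median relative to the control mean was −0.03 in knockdown 1 and 1.87 in knockdown 2 on the log2 scale, where GAP43 was at −0.17 and 2.39. The part of fibroblast RNA in the GAP43 values was not tested.

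**Figure D2:**
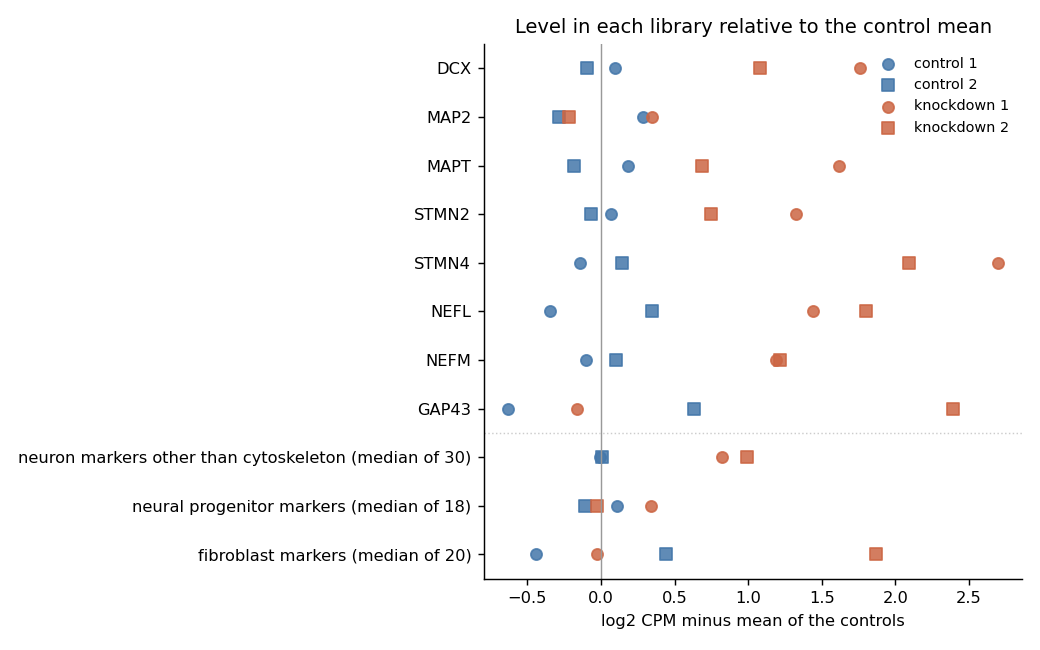
Log2 CPM (counts scaled to library size, with TMM factors scaling, prior count 2) of each library minus the mean of both controls (x axis), for the 8 tested members and, below the dotted line, the median of 3 marker lists. For DCX, MAPT, STMN2, STMN4, NEFL and NEFM both knockdown points are to the right of both controls, whereas GAP43 has the library order of the fibroblast markers.

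In the controls the order of mean FPKM was MAP2 (62.0 ± 17.9), GAP43 (32.2 ± 18.2), STMN2 (31.3 ± 2.81), DCX (6.62 ± 0.742), NEFL (5.45 ± 1.72), NEFM (4.33 ± 0.339), STMN4 (0.880 ± 0.141), MAPT (0.325 ± 0.0778) and INA (0.0400 ± 0.0566), each SD over n = 2. GAP43 and STMN2 differed by less than the spread between libraries, as did DCX and NEFL, and NEFL and NEFM. Together the 9 genes summed to 144 and 142 FPKM in the control libraries and 235 and 226 in the knockdown. That near equality of the knockdown libraries hid a different makeup: GAP43 supplied 11.11% of the sum in knockdown 1 and 50.5% in knockdown 2. Without MAP2 and GAP43 the other 7 genes summed to 50.02 and 47.9 FPKM in the control libraries and to 132 and 74.0 in the knockdown. Those 7 were the genes already higher in both knockdown libraries, so the direction of this difference was fixed by the choice.

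Ratios of counts within a library do not depend on how libraries are scaled, and were formed after the values above had been seen, so they are given without a test. For each 100 counts of MAP2 there were 16.2 counts of DCX in control 1 (exact 95% binomial interval 15.1 to 17.5), 21.1 in control 2 (19.0 to 23.4), 49.5 in knockdown 1 (46.7 to 52.4) and 45.6 in knockdown 2 (39.1 to 53.2). The difference between the knockdown libraries in DCX level was thus largely absent from its ratio to MAP2. Likewise STMN2 per 100 MAP2 counts was 15.0 and 20.3 in the controls against 34.5 and 34.1 in the knockdown. For STMN4 the ratio was 0.367 and 0.688 against 2.90 and 2.78. NEFL and NEFM were also higher relative to MAP2 in both knockdown libraries, but with knockdown 2 at the top: 11.0 and 21.0 for NEFL against 3.30 and 7.96 in the controls, and 21.5 and 32.3 for NEFM against 9.13 and 15.6. GAP43 per 100 MAP2 counts was 6.12, 21.9, 8.12 and 70.9 (control 1, control 2, knockdown 1, knockdown 2). MAPT per 100 MAP2 counts was 0.444, 0.491, 1.26 and 0.928 in that order. Its interval in knockdown 2, 0.300 to 2.18, contained the values of both controls.

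Within the stathmin family the neuronal members were set against the broadly expressed one. STMN1, the stathmin of dividing cells, was at 672 and 631 FPKM in the control libraries and 850 and 454 in the knockdown, with overlapping groups. For each 100 counts of STMN1 there were 10.5 and 9.83 counts of STMN2 in the control libraries and 19.2 and 17.6 in the knockdown, with no overlap of the exact intervals between groups (highest control bound 11.3, lowest knockdown bound 15.0). STMN4 per 100 STMN1 counts was 0.256 and 0.333 against 1.62 and 1.44. STMN3, another neural stathmin, was at 1.24 and 1.38 against 1.67 and 2.01, and the intervals of the groups overlapped. Among beta tubulins, with TUBB3 not measured, TUBB2B, an isotype abundant in developing brain, was at 761 and 648 FPKM in the control libraries and 1306 and 751 in the knockdown (edgeR log2 fold change 0.73 ± 0.30 SE, adjusted p = 0.606). Per 100 counts of the widely expressed TUBB it was at 27.3 and 25.9 against 45.3 and 33.9. Beta tubulins are close in sequence and the deposited counts of TUBB2B (in 3 libraries) and TUBB (in knockdown 2) were not whole numbers, so these values are uncertain; which loci shared the reads was not tested. Counts of all 9 neuronal cytoskeleton genes were whole in every library. STMN1, STMN3, TUBB and TUBB2B were named after their values were seen.

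**Figure D3:**
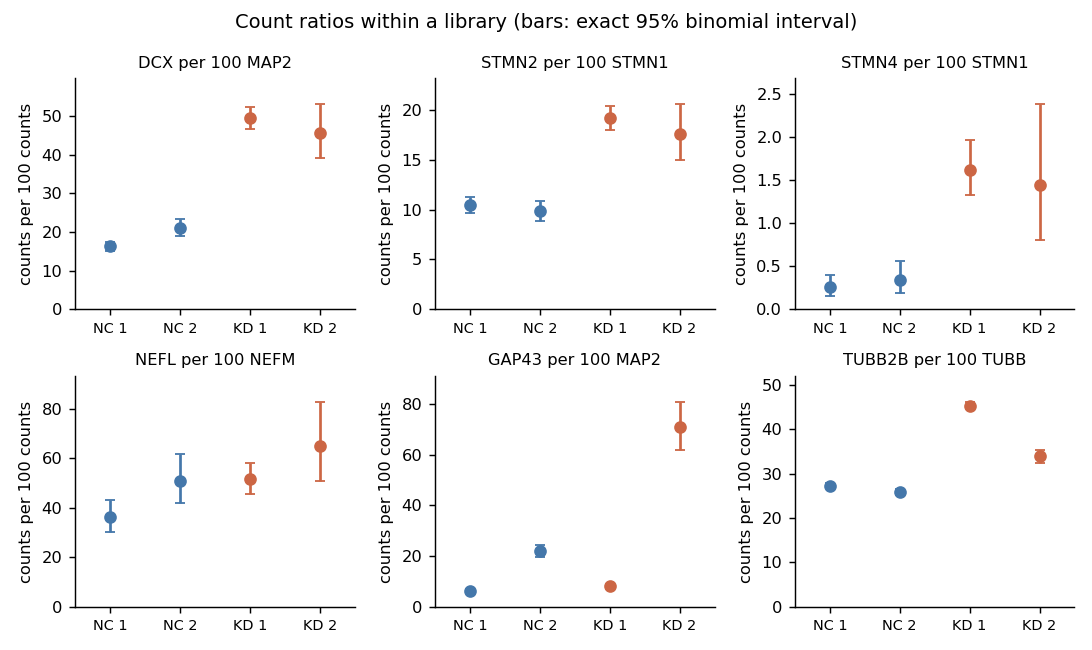
Counts of a gene per 100 counts of a reference gene in the same library (y axis, from 0), with exact 95% binomial intervals that cover counting error only. The knockdown libraries (KD 1, KD 2) lie above both controls (NC 1, NC 2) for DCX, STMN2, STMN4 and TUBB2B, the NEFL to NEFM ratio shows overlapping intervals, and GAP43 is highest in knockdown 2 and next in control 2.

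The other genes of neurites had smaller differences as a group. A list of 50 further neurite and microtubule genes had 42 tested members, with a median log2 fold change of 0.22, against 1.44 for the 8 tested neuronal cytoskeleton genes and 0.01 for all tested genes. At an unadjusted edgeR p under 0.05, 3 of the 42 were higher and 0 lower, where 4.26% of all tested genes were higher and 3.45% lower. Both knockdown libraries were above both controls for 17 of the 42, against 18.8% of all tested genes. KIF1A, the kinesin that carries synaptic vesicle precursors along axons, was at 7.24 and 8.02 FPKM in the control libraries and 22.02 and 16.8 in the knockdown (log2 fold change 1.56 ± 0.22 SE, adjusted p = 0.241). MTCL1, a microtubule crosslinking factor, was at 4.12 and 3.09 against 19.0 and 7.59 FPKM, and the kinesin KIF3C at 7.28 and 6.15 against 9.50 and 7.80. Of 35 tested cytoskeleton genes of broad expression, 13 also had both knockdown libraries above both controls. At that p 1 of the 35 was higher and 0 were lower, and their median was 0.21. That gene was LMNA, the A-type lamin, at 12.6, 32.0, 40.6 and 114 FPKM (control 1, control 2, knockdown 1, knockdown 2). The smallest p values after it belonged to TUBB6 (19.0, 50.1, 52.9 and 181 FPKM in that order) and to NDE1, a dynein regulator of mitosis (64.2, 51.1, 42.0 and 24.2 FPKM). LMNA and TUBB6 thus had the highest value in knockdown 2, as GAP43 did.

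Neuron markers outside the cytoskeleton were more often higher than lower in the knockdown. Of 30 tested, 23 had a positive log2 fold change, 14 were higher and 0 lower at an unadjusted edgeR p under 0.05, and 18 had both knockdown libraries above both controls. Over all tested genes the shares were 51.2%, 4.26%, 3.45% and 18.8% in that order. The median of the 30 was 1.17. Over the listed genes present in each fit it was 0.72 without knockdown 2 and 0.57 in limma on log2 FPKM plus 1. That of the members present in each fit was 1.15 or more without any 1 library and 0.87 in limma. NHLH2, a helix-loop-helix factor of newly formed neurons, was at 0.17 and 0.33 FPKM in the control libraries and 4.35 and 3.52 in the knockdown (log2 fold change 4.22 ± 0.45 SE, adjusted p = 0.179). The axonal adhesion protein CNTN2 was at 6.78 in both controls against 39.5 and 25.1 FPKM, and the proneural factor NEUROD4 at 2.08 and 2.79 against 10.03 and 9.38. Neural progenitor markers had a median of 0.15 over 18 tested genes, 2 of them higher and 0 lower at that p. Those were DLL3, a Notch ligand, at 8.80 and 8.19 against 41.0 and 17.3 FPKM, and POU3F3 at 12.04 and 8.99 against 22.7 and 16.3. The third by p was SOX3, at 2.05 and 1.17 against 0.77 and 0.15 FPKM, and SOX1 had no count in any library. REST, which silences neuronal genes in other cells, and its cofactors had a median of 0.14 over 14 tested genes, none with an unadjusted p under 0.05. The smallest p in that list belonged to HDAC1, CTDSP1 and BTRC, with log2 fold changes of 1.24, 1.12 and 0.36. These rested on knockdown 2, without which they were 0.21, −0.069 and 0.15. With total counts the medians of the neural progenitor and REST lists were −0.029 and −0.073, and that of the broadly expressed cytoskeleton genes was 0.00027, against −0.18 for all genes. The progenitor median was −0.035 without knockdown 1 and 0.32 without knockdown 2, and the REST median was 0.31 and −0.039. That of the neurite and microtubule genes was 0.021 without knockdown 1 and 0.36 without control 1. For the broadly expressed cytoskeleton genes it was 0.11 without knockdown 2. Medians without 1 library cover the genes that passed the filter in that fit. The lists were written with earlier results of these data known, and these counts are descriptions.

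**Figure D4:**
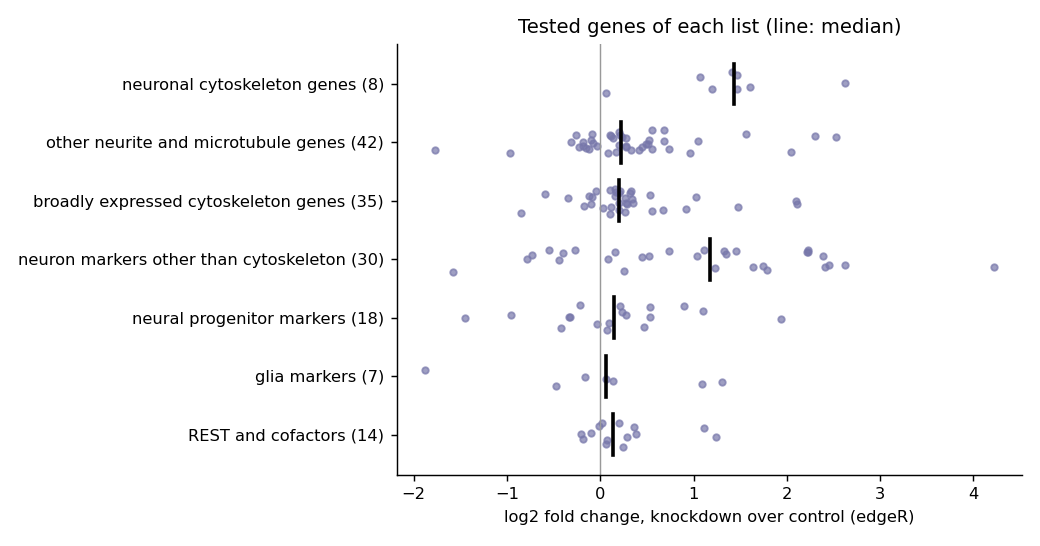
The edgeR log2 fold change (x axis) of every tested gene in 7 lists, with the number tested in parentheses and the median as a line. The medians are 1.44 for the neuronal cytoskeleton genes and 1.17 for other neuron markers (0.72 without knockdown 2), and lie between 0.06 and 0.22 for the remaining 5 lists, of which the progenitor, glia and REST medians turn negative with total counts. Lists not plotted also had medians away from 0: 1.17 for fibroblast, 1.77 for blood, −2.83 for epithelial and trophectoderm, −1.42 for endoderm and −0.29 for pluripotency markers.

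Markers of other cell types also differed between the groups or between libraries of a group. Medians given without 1 library cover the genes that passed the filter in that fit, which need not be those tested with all libraries. Glia markers had a median log2 fold change of 0.06 over 7 tested genes, which was −0.14 with total counts, 0.35 without knockdown 1 and −0.24 without knockdown 2. They summed to 24.6 and 24.3 FPKM in the control libraries and 19.9 and 30.8 in the knockdown. FOXD3 had no counts, and ERBB3 was at −1.88 (−2.97 without knockdown 1) and SLC1A2 at 1.09 (0.48 without knockdown 2). The ERBB3 value without knockdown 1 rested on 1 count in knockdown 2. Of 20 tested fibroblast markers, 19 were positive, with a median of 1.17 that was −0.12 without knockdown 2 and 1.75 without knockdown 1 or control 2. COL6A2 was at 1.93 (0.85 without knockdown 2) and THY1 at −1.17. Of 5 tested blood markers, 4 were positive (median 1.77, 0.45 without knockdown 2 and 2.65 without knockdown 1), with CD34 at 2.39 and CORO1A at 1.77 (0.48 and 0.47 without knockdown 2), and their sum was 5.26 and 7.74 against 6.11 and 26.5 FPKM. Epithelial and trophectoderm markers had a negative log2 fold change for 6 of 7 tested genes, and summed to 166 and 195 against 123 and 85.8 FPKM. KRT8 was at −4.14 and KRT18 at −3.78. KRT18 had 3 and 0 counts in the knockdown libraries, so its value of −7.87 without knockdown 1 rested on a count of 0. Their median of −2.83 varied with the fit, which could also change the genes it covered. It was −1.60 without control 2 and −3.49 without control 1. In DESeq2, which did not have the filter on low counts, it was −0.74, and in limma with plus 1 it was −1.21. All 7 tested endoderm markers were negative (median −1.42), with COL4A2 at −2.09 and APOA1 at −1.42. The list summed to 213 and 226 against 106 and 89.6 FPKM. Over the genes passing the filter in each fit, its median was −0.79, −0.35 and −0.76 without control 1, control 2 and knockdown 1. COL4A2 and APOA1 themselves were at −2.26 and −1.58 without control 1, and at −1.83 and −1.19 without control 2. Of 7 tested pluripotency genes 5 were negative, with SALL4 at −1.62 and KLF4 at 1.24. The pluripotency median was −0.29, and it was −0.81 without knockdown 1 but −0.018 without knockdown 2. The part of these shifts in cell makeup in the neuronal cytoskeleton values was not tested.

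DESeq2, run as an alternative to edgeR, called 4 of the 9 neuronal cytoskeleton genes higher, against 0.761% of the 12614 genes for which it gave an adjusted p. These were STMN4 (adjusted p = 0.00547), DCX (0.0101), NEFM (0.0152) and NEFL (0.0261), with log2 fold changes of 2.64, 1.47, 1.21 and 1.61. STMN2 was not called, with an adjusted p of 0.137 in DESeq2. These calls depended on the libraries included, and none of them held in every DESeq2 fit that left out 1 library. Such a fit leaves 1 library in a group and called very different numbers of genes by the library left out, so its member calls are not read here. In edgeR, DCX, NEFL and NEFM passed the threshold without knockdown 1 (adjusted p = 0.0388, 0.0411 and 0.0388), a fit that called 1110 genes higher, and no tested member passed it without any other library. The direction of all tested members but MAP2 and GAP43 stayed positive without each library in turn, with log2 fold changes of 1.08 to 1.74 for DCX, 0.75 to 1.30 for STMN2, 2.25 to 2.85 for STMN4, 0.73 to 1.71 for MAPT, 1.29 to 2.00 for NEFL and 1.10 to 1.31 for NEFM.

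**Figure D5:**
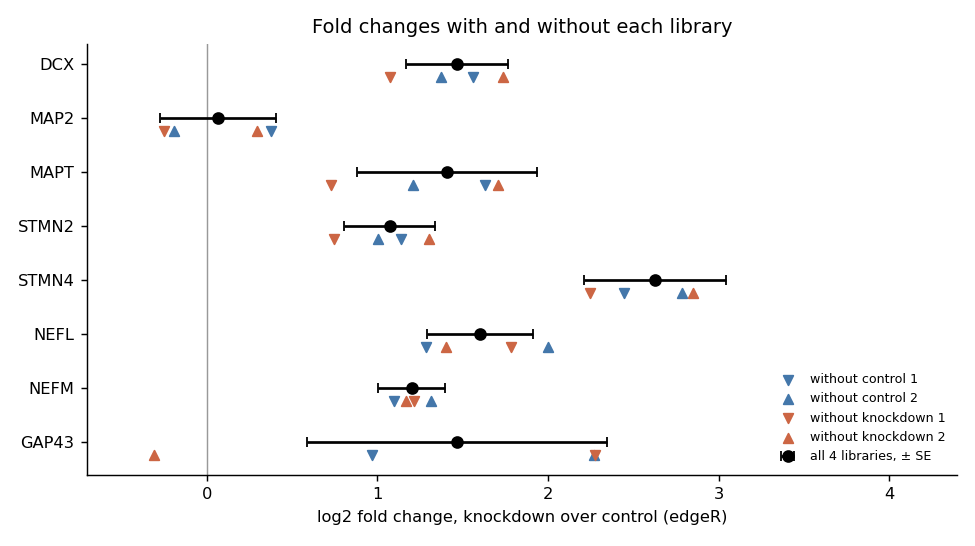
The edgeR log2 fold change of knockdown over control (x axis) of the 8 tested members: black points with standard errors use all 4 libraries, and triangles leave out 1 library each. Only the MAP2 and GAP43 triangles reach below 0, GAP43 at −0.31 without knockdown 2.

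The genes with levels closest to those of MAP2 and GAP43 were found by the root mean square difference of log2 CPM centred on each gene's mean. MAP2 and GAP43 were the tested members with the highest mean FPKM over the 4 libraries. For MAP2 the closest genes were RNF122, CELSR3 and LOC100523672, at differences of 0.02 to 0.03. CELSR3, an atypical cadherin, was at 3.99, 2.59, 4.12 and 1.97 FPKM (control 1, control 2, knockdown 1, knockdown 2). For GAP43 they were RAB11A, OGDHL and TPM1, at 0.06 to 0.07. TPM1, an actin-binding tropomyosin, was at 84.2, 204, 135 and 668 FPKM in that order, so it was highest in knockdown 2 and next in control 2, as GAP43 was. With 4 libraries and 11967 genes such likeness is a description only.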

How the data were processed

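RNA was measured in 4 libraries, 2 per group, grouped by the genotype label. The authors deposited expected counts per gene, not normalised between libraries; Bowtie2 and RSEM 1.2.12 with the build Sscrofa11.1 are named in the submitters' processing notes. Further columns of the deposited table were read as FPKM, a unit inferred from 3 intronless genes, whose values implied 1.03 to 1.04 times the summed counts with an assumed fragment length of 200 bases. Strandedness was not given in the sources used here, so overlapping genes may share reads. All identifiers matched RefSeq genes, and 22 symbols stored as dates were restored. Another 4 columns, of group means, were not used.

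After rounding of the expected counts to whole numbers, groups were compared with edgeR 4.0.16 in R 4.3.3: TMM, filterByExpr, and the two-sided quasi-likelihood test without covariates, with Benjamini-Hochberg adjustment over 11967 genes and a threshold of 0.05. Standard errors come from that fit. The median of a list was taken over its genes present in each fit, and the filter kept a different set of genes when a library was left out. The pipeline was tested on simulated data. Alternatives were DESeq2 1.42.0, limma 3.58.1 on log2 FPKM plus 1 or 0.1, other scalings, no filter, a replicate block, and leaving out each library. "No overlap" refers to TMM-scaled CPM. Intervals cover counting error only; a count of 3 corresponds to 0.253 to 1.25 CPM. The members and lists were chosen with earlier results of these data known. Named genes were the members, LIN28A, the 3 genes (2 for other cell types) of smallest p in each list, and the nearest profiles. POU5F1, SOX2, STMN1, STMN3, TUBB and TUBB2B were named after their values were seen.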

Additional observations from a re-analysis of the deposited data

How the results depend on the processing

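Called genes numbered 0 higher and 0 lower in edgeR, where 510 and 413 had an unadjusted p under 0.05; the counts were 0 and 0 with upper-quartile factors or DESeq2 size factors, 28 and 12 with no filter beyond 1 count, 2 and 6 with total counts, 96 and 34 in DESeq2, 0 and 2 in limma on log2 FPKM plus 1, and 1 and 2 with plus 0.1. Without 1 library they ranged from 0 to 1110 higher and from 0 to 94 lower; the largest counts came without knockdown 1, and 7 and 4 came without knockdown 2. The median log2 fold change of the members was 1.44, 1.19 with total counts, 0.87 and 0.96 in limma with plus 1 and plus 0.1, and 1.15 to 1.40 without 1 library. These medians do not all cover the same genes. MAPT and INA were absent from limma, and INA passed the filter when either control was left out. Part of this followed from the scaling, since the median of all genes was −0.18 with total counts and −0.19 and −0.22 in limma; the cause of the other differences was not tested.

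With the last digit of the titles as a replicate block, 1032 genes were called higher and 306 lower, with a member median of 1.29. They included NEFL (adjusted p = 1.02e-08 in edgeR with the block), STMN4 (7.58e-08), DCX (1.45e-05), NEFM (0.000119), GAP43 (0.000839) and STMN2 (0.00227), but not MAPT (0.0831) or MAP2 (0.945). The labels do not say that these digits pair libraries, and the fit leaves 1 residual degree of freedom. Same-numbered libraries had deviations from their group means correlated at 0.56. With 2 libraries per group the opposite pairing gives the same value with the sign reversed. The correlation therefore cannot show whether libraries were paired, and the block is not part of the labelled design.

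Signs changed with the scaling for genes near 0: with total counts the log2 fold changes were −0.11 for MAP2, −0.090 for CELSR3, −0.044 for LOC100523672, −0.10 for RNF122, −0.081 for SOX2 and −0.054 for TUBB. With upper-quartile factors they were −0.027 for MAP2, −0.0093 for CELSR3 and −0.017 for RNF122. In limma with plus 1 and plus 0.1 they were −0.17 and −0.18 for MAP2, −0.12 and −0.17 for CELSR3, −0.24 and −0.28 for LOC100523672, −0.090 and −0.17 for RNF122, −0.17 and −0.18 for SOX2, −0.068 and −0.068 for STMN1, and −0.064 and −0.064 for TUBB. Without 1 library signs also changed for genes far from 0 that rested on knockdown 2: GAP43, CTDSP1, OGDHL, RAB11A and TPM1, at 1.47, 1.12, 1.33, 1.57 and 1.59 with all libraries, had their lowest value there. The ranges were −0.25 to 0.38 for MAP2, −0.30 to 0.39 for CELSR3, −0.30 to 0.45 for LOC100523672, −0.30 to 0.37 for RNF122, −0.25 to 0.32 for SOX2, −0.049 to 0.38 for STMN1, −0.81 to 0.011 for POU5F1, −0.31 to 2.27 for GAP43, −0.069 to 1.80 for CTDSP1, −0.33 to 2.25 for OGDHL, −0.21 to 2.34 for RAB11A and −0.19 to 2.36 for TPM1. DESeq2 without 1 library, added after seeing the data, did not keep the 4 member calls. INA and MAPT had at most 5 counts in knockdown 2.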

Other observations

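The ratio of a gene's count to its FPKM gives the mean effective transcript length that the authors' values assumed, taking the summed counts as the library total. It was 9.94, 9.91, 9.89 and 9.84 kilobases for DCX in control 1, control 2, knockdown 1 and knockdown 2, and 5.86, 5.80, 5.83 and 5.95 for MAP2. For MAPT it was 5.11, 5.20, 5.07 and 4.96 kilobases, on 5 to 45 counts and FPKM given to 2 decimals. RefSeq lists 12, 50 and 26 transcripts for these genes, so a change in the mix of long and short transcripts could move this length, but the highest of the 4 values exceeded the lowest by 1.01% for DCX, 2.52% for MAP2 and 4.83% for MAPT. The same length was 1.97 to 1.98 kilobases for STMN2, which has 1 RefSeq transcript.

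The ratio of the neurofilament subunits differed between libraries less clearly than their levels. Counts of NEFL per 100 counts of NEFM were 36.2 (exact 95% binomial interval 30.2 to 43.2) in control 1, 50.9 (41.9 to 61.7) in control 2, 51.5 (45.5 to 58.2) in knockdown 1 and 64.9 (50.8 to 82.8) in knockdown 2. Control 2 and knockdown 1 could not be distinguished by this ratio. NEFH, the heavy subunit, was not analysed here.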
